A study of Rattus norvegicus with 4 samples.

Results

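The genes described here encode the subunits of the mitochondrial respiratory chain and of the ATP synthase, in 5 complexes. They were taken by name: every probe whose RefSeq transcript belongs to a rat gene with a symbol beginning Ndufa, Ndufb, Ndufc, Ndufs or Ndufv (complex I, without the Ndufaf assembly factors), to Sdha to Sdhd (complex II), to the Uqcr genes, Cyc1 and Cycs (complex III and cytochrome c), to Cox4 to Cox8 genes (complex IV) or to Atp5 genes (complex V). This gave 82 genes on 111 probes, of 16581 named genes on the array, with 35 genes in complex I, 4 in II, 10 in III, 17 in IV and 16 in V. The samples were 4 cultures of NR8383, a macrophage line established from the lung lavage of a normal rat, described by the labels as cells after 20 passages. They grew partly attached and partly floating and were seeded in 25 cm2 flasks for 48 h. All 4 received the multi-walled carbon nanotube NRCWE006, a particle made of nested carbon tubes, for 4 h at a dose labelled 1 cm2/cm2. These are replicates 1 to 4 of a single group, with 1 one-colour Agilent array each. Unexposed cultures, which the study also had, were not analysed here, and the values therefore describe exposed cells without a contrast.

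The respiratory chain moves electrons from NADH and succinate to oxygen and pumps protons across the inner mitochondrial membrane as it does so. Complex I accepts the electrons of NADH and complex II those of succinate, both pass them to ubiquinone, complex III hands them on to cytochrome c, and complex IV gives them to oxygen. The ATP synthase, complex V, lets the protons flow back and makes ATP. Macrophages are known to shift between this pathway and glycolysis when they are activated, and complexes I and III are known sources of reactive oxygen species in them. All members are encoded in the nucleus; the subunits encoded in mitochondrial DNA do not fall under these names and were not analysed here.

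Each array held 58717 gene spots, none of them saturated, and between 4252 and 6476 probes per array were called well above background by the scanner software. Replicate 4 had 656 gene spots called non-uniform, against 9 to 34 on the others, and the highest median signal of negative control spots (4.61, against 2.98 to 3.36). Its values are therefore given separately below. Of the markers of other cells the culture could hold, none of 5 fibroblast, 4 granulocyte, 4 lymphocyte and 7 lung epithelium genes was detected on all arrays. The defining markers Col1a1, S100a8, Cd3e, Sftpc and Epcam were called on no array and the surfactant gene Sftpb on some. Of 8 macrophage markers, Cd68, Lyz2, Fcgr1a and Spi1 were detected. Marco was called on some arrays, and Csf1r, Cd14 and Itgam were called on no array. A gene is called detected here when 1 of its probes was well above background on all 4 arrays.

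Most respiratory chain genes were detected, and the share differed between complexes. Of the 82 genes, 81 were measured on all arrays, and 66 of these (81.5%) were detected, where the share over all 16419 named genes measured was 11.9%. Counted over all 82 genes, detection was 16 of 16 in complex V and 30 of 35 in complex I. It was 8 of 10 in complex III, 3 of 4 in complex II and 9 of 17 in complex IV. Cox8b, in complex IV, was the gene not measured on every array, so 9 of 16 measured genes were detected there. Of the measured members, 10 (12.3%) were called on no array, against 70.9% of named genes. No test was made of these shares, since the members were chosen with earlier results of these data known. Leaving out any 1 replicate gave 66 to 68 detected members. A gene that was not well above background may still be expressed below what its probe can show.

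**Figure D1:**
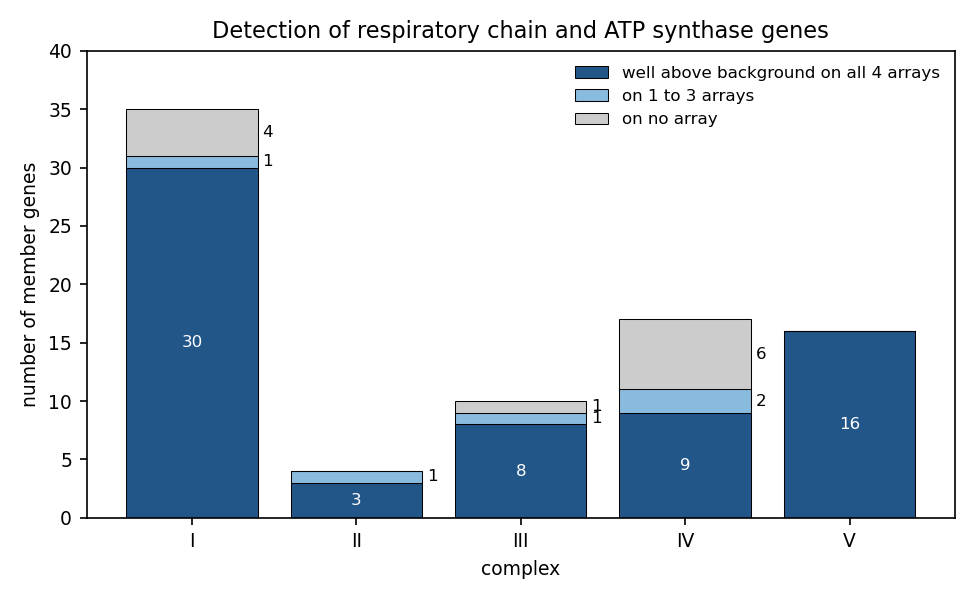
Number of member genes (vertical axis) in each complex (horizontal axis), divided by whether a probe was well above background on every array, on 1 to 3 of them or on none. All 16 genes of complex V were detected, and complex IV has the most undetected genes, with 2 called on some arrays and 6 on none. The 6 include Cox8b, whose spot on replicate 4 was left out.

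In complex IV, 5 of the 8 undetected genes were alternative isoforms. Several of its subunits exist in a widely expressed form and in forms known from muscle, lung or testis. Cox4i1, Cox6a1 and Cox8a, the widely expressed forms, were detected. Cox4i2, known from lung and as a form raised by hypoxia, and Cox6b2 and Cox8c, known from testis, were called on no array. Cox8b, a muscle form, was called on none of replicates 1 to 3, where it had a usable spot. Cox4i2 signals were 3.5, 2.8, 3.2 and 4.0 on replicates 1 to 4, below the 95th percentile of negative control spots on each array (4.00, 3.48, 3.99 and 5.10). Cox4i1 signals were 2285, 2664, 1475 and 1363. Likewise Cox8a gave signals of 1297, 1166, 974 and 744, and Cox8c gave 3.4, 2.9, 3.7 and 5.0. The widely expressed Ndufa4, an accessory subunit first assigned to complex I and counted there only by its name, was detected. Its relative Ndufa4l2, a gene known to be raised by hypoxia, was called on no array by either of its 2 probes. Cox7a2 and the related Cox7a2l, which takes part in joining complexes III and IV, were detected too. Signals of different probes depend on the probe, so only the calls are compared between isoforms.

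The same pattern did not hold for every isoform. Cox6b1, the widely expressed form of its subunit, was called on no array, with signals of 6.8, 4.6, 4.5 and 4.5. Cox7c, another small subunit, was called on none either, with 3.6, 3.1, 3.7 and 4.7. Each rested on 1 probe. The muscle form Cox6a2 was called on replicate 4 alone, by 1 of its 2 probes, whose signals were 3.8, 3.3, 3.0 and 38.5. The other probe gave 10.2, 4.5, 4.0 and 4.8 and was called on no array, so the probes of Cox6a2 disagree on replicate 4. Cox6c-ps1, a pseudogene of Cox6c that the name rule includes, was also called on replicate 4 alone, by 1 of its 2 probes, with 7.6, 3.1, 3.4 and 49.3. The Cox8b spot on replicate 4 read 65.8 and was well above background, but it was called non-uniform and left out. The other arrays gave 6.9, 3.1 and 3.8. Of named genes, 7.19% were called on replicate 4 alone, and of the 81 members 2 were (2.47%).

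In the other complexes the undetected genes include core subunits. Ndufs1, the largest subunit of complex I and a carrier of iron-sulphur clusters, was called on replicates 1 to 3 with signals of 40.4, 22.7 and 40.6, but not on replicate 4, at 6.8. Sdhc, a membrane anchor of complex II, was called on replicates 1 and 2 (31.1 and 19.8) and not on replicates 3 and 4 (12.4 and 4.9). Uqcrb, a small subunit of complex III, was called on replicates 1 to 3 with 24.6, 16.1 and 34.6 by its brighter probe. That probe missed the call on replicate 4 with 19.6, a signal above that of replicate 2. The other Uqcrb probe was called on no array, with 3.3, 3.0, 3.9 and 4.6. Ndufs4, an accessory subunit of complex I, was called on no array, with 3.5, 3.1, 3.9 and 5.1. Cycs, cytochrome c itself, was called on no array by either of 2 probes, with 12.6, 2.9, 6.5 and 12.3 on the brighter. Ndufa10, targeted here through a predicted transcript, had 4.6, 3.1, 4.0 and 5.0, whereas the near copy Ndufa10l1 was detected. With detection set by the negative control spots instead, 69 members passed, Ndufs1 and Uqcrb among them.

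Promoter sequences were available for 71 of the 82 members and were searched for motifs of factors known to drive nuclear genes of the respiratory chain. NRF1, a factor named after this role, binds GCGCA followed directly by its reverse complement TGCGC, which reads the same on both strands, and factors of the ETS family, to which GABP belongs, bind CCGGAAG, in reverse CTTCCGG. In the 250 bases before the gene start, the NRF1 letters were found in 4 of 71 members (5.63%), in 2.49% of 1647 detected named genes and in 0.762% of all 33469 promoters. The ETS letters were found in 20 of 71 members (28.2%), in 19.2% of detected named genes and in 7.27% of all promoters. Among detected members 19 of 59 held the ETS letters, and among undetected ones 1 of 12, Ndufs1. The members with the NRF1 letters were Atp5mc2, Atp5me, Atp5po and Ndufa11. Atp5me, a small membrane subunit of complex V, held both motifs. A match describes the letters and does not show that a factor binds. The sequences below, from RefSeq on the GRCr8 assembly, run to the base before the gene start. Those of Atp5me, Atp5mc2 and Cox8a are shown because they hold these motifs in detected members. Cox8b is added as a counterpart of Cox8a that was not called on replicates 1 to 3 and not measured on replicate 4. Capitals mark matches on either strand, and no match overlaps another.
Atp5me, chr14:1464610-1464859, plus strand: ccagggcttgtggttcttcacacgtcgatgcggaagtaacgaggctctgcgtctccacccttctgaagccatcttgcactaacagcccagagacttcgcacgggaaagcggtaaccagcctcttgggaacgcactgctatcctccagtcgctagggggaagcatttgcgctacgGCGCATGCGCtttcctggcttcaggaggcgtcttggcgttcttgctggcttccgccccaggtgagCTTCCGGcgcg
Atp5mc2, chr7:135678219-135678468, minus strand: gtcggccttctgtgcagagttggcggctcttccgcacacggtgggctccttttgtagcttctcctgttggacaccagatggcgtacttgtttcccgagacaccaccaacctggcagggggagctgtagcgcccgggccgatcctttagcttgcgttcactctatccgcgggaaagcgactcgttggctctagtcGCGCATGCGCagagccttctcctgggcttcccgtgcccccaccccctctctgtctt
Cox8a, chr1:213833624-213833873, minus strand: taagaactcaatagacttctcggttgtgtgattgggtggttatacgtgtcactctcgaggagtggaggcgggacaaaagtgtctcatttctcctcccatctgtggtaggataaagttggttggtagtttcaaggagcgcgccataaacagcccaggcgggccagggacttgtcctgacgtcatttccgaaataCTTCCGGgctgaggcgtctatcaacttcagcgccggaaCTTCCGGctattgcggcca
Cox8b, chr1:205408274-205408523, minus strand: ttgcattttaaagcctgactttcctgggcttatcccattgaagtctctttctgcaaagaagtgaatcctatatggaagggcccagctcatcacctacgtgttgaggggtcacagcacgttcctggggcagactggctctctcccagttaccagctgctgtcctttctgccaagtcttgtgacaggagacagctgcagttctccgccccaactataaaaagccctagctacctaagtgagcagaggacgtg
The Cox8a window holds the ETS letters 2 times, beginning at positions -57 and -19 relative to the gene start, and the Cox8b window holds neither motif. In Atp5me the NRF1 letters begin at -76 and the ETS letters at -11, and in Atp5mc2 the NRF1 letters begin at -56.

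The levels below are log2 processed signals relative to the 75th percentile of the detected probes of the same array. They compare arrays for a given probe and do not rank genes. Each culture had 1 array, so a difference between replicates holds the culture, its labelling and its hybridisation together. The labels give 100 ng of RNA for labelling in each culture, and levels are relative within the array. They therefore do not show the number of cells or the total RNA per cell.

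The 4 arrays differed little in most members. The median SD over 4 arrays was 0.212 for the 66 detected members and 0.241 for all 1946 detected named genes. By complex it was 0.224 in I, 0.316 in II, 0.171 in III, 0.204 in IV and 0.218 in V. Members had the larger median SD with the normexp background correction (0.198, against 0.167 for all detected named genes). The same held with the percentile taken over all gene probes (0.873, against 0.851). Members were also brighter, with median signals per array of 259 to 469, against 73.2 to 132 for all detected named genes. The highest and the lowest array differed by more than 2-fold in 5 members (7.58%), Atp5f1b, Atp5pb, Uqcrc2, Ndufab1 and Ndufs8, where the share over all detected named genes was 15.3%. With the normexp background correction none of the 66 ranged over 2-fold, against 2.0% of all detected named genes. Without scaling between arrays 27 did (40.9%), against 52.8%. Without replicate 4 the 5 became 3 (4.41%, against 3.66%): Atp5f1b, with Ndufs1 and Uqcrb, which then count as detected. Without replicate 3 they became 2 (3.03%, against 13.8%), Ndufab1 and Ndufs8. These members were dim. Among the 33 detected members with the lower mean signal, from 48.2 to 303, the median SD was 0.262 and 5 ranged over 2-fold. Among the 33 brighter ones, up to 2600, the median SD was 0.168 and none did.

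**Figure D2:**
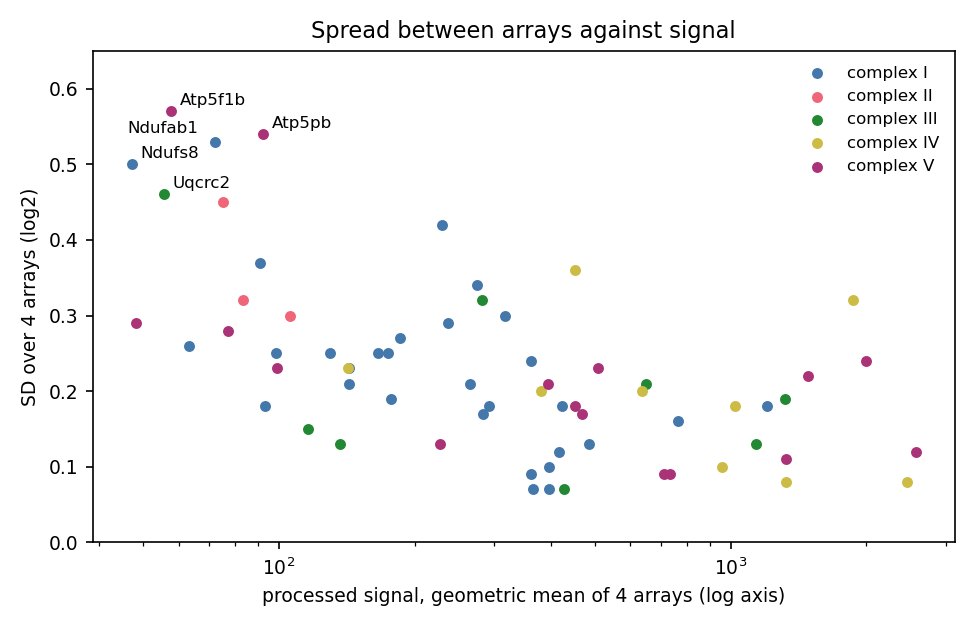
SD over 4 arrays on the log2 scale (vertical axis) against the geometric mean of the processed signal (horizontal log axis) for the 66 detected members, coloured by complex. The 5 named genes ranged over more than 2-fold between arrays and all have signals in the lower part of the range.

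In complex I, the largest SDs among detected genes were those of Ndufab1, Ndufs8 and Ndufv3. Ndufv1, which binds NADH and the flavin, had levels of 0.49, 0.62, 0.57 and 0.46 on replicates 1 to 4 (SD 0.07, n = 4). Its partner Ndufv2 had 0.59, 0.76, 0.77 and 0.39 (SD 0.18). Replicate 4 was the lowest in both. The subunits of the arm that leads electrons to ubiquinone went different ways on replicate 4. Ndufs3 had -0.88, -0.85, -0.77 and -1.25, with replicate 4 lowest, and Ndufs7 had -1.18, -0.66, -1.09 and -0.84, with replicate 2 highest. Ndufs8, which carries iron-sulphur clusters, had -2.92, -2.80, -2.62 and -1.81 (SD 0.50), with replicate 4 above the other 3. Ndufv3, an accessory subunit, was likewise highest on replicate 4 by its detected probe, with -0.58, -0.36, -0.45 and 0.37 (SD 0.42). Ndufab1, the mitochondrial acyl carrier protein, was lowest there, with -1.53, -1.57, -1.93 and -2.67 (SD 0.53). Without replicate 4 the SD was 0.12 in Ndufs8, 0.09 in Ndufv3 and 0.24 in Ndufab1. The SD of Ndufv1 was 0.15 with the normexp background correction. Ndufa4, placed here by its name, had 0.28, -0.06, -0.07 and 0.01 (SD 0.17), with replicate 1 highest.

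The other 22 detected accessory subunits of complex I had SDs from 0.07 in Ndufa12 to 0.37 in Ndufb3. Those under 0.15 were Ndufa12, Ndufc2, Ndufa5, Ndufb11 and Ndufb9. Between these and Ndufb3 lay Ndufa13, Ndufb5, Ndufa2, Ndufb8, Ndufb10, Ndufa7, Ndufa6, Ndufs5, Ndufa9, Ndufa10l1, Ndufb2, Ndufa1, Ndufa11, Ndufb6, Ndufb4 and Ndufb7. Replicate 2 was the highest array for 12 of the 30 detected genes of complex I, and 20 of them lay above their own mean there, as did 50.7% of all detected named genes. The complex I median on replicate 2, relative to all detected genes, was 0.08, and -0.01 after quantile normalization. On replicate 4, 12 of the 30 had their lowest value and 7 their highest: Ndufs8, Ndufv3, Ndufs5, Ndufb7, Ndufb2, Ndufb9 and Ndufa13.

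Complex II oxidises succinate and is also an enzyme of the citric acid cycle. Sdha, its flavin-carrying subunit, had levels of -1.69, -1.71, -1.54 and -2.53 (SD 0.45, n = 4), with replicate 4 lowest. Sdhd, a membrane anchor, had -1.24, -1.47, -1.04 and -1.74 (SD 0.30), again with replicate 3 highest and replicate 4 lowest. Sdhb, the iron-sulphur subunit, did not follow them, with -2.16, -1.47, -1.76 and -1.51 (SD 0.32) and its lowest value on replicate 1. The 3 subunits thus shared no order over the arrays, and without replicate 4 the SD of Sdha was 0.08.

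In complex III and its partner, Cyc1, the haem protein cytochrome c1, was among the steadiest members, with 0.60, 0.70, 0.71 and 0.56 (SD 0.07, n = 4) by its brighter probe. Its other probe spread more, with 0.79, 0.66, 0.26 and 0.25 (SD 0.28). Uqcrfs1, the Rieske iron-sulphur protein, had 0.17, 0.08, 0.33 and -0.42 (SD 0.32). Uqcrfs1 and the brighter Cyc1 probe had their highest value on replicate 3 and their lowest on replicate 4. The core proteins differed in spread: Uqcrc1 had -0.94, -0.87, -1.06 and -1.16 (SD 0.13), while Uqcrc2 had -2.19, -2.34, -1.78 and -2.90 (SD 0.46). Without replicate 4 the SD was 0.28 in Uqcrc2 and 0.12 in Uqcrfs1. Uqcr11, a small subunit, had 0.94, 1.25, 1.38 and 1.40 (SD 0.21), with replicate 1 lowest. Uqcrq, Uqcrh and Uqcr10, further small subunits, had SDs of 0.13 to 0.19 and their lowest value on replicate 3.

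Among the detected genes of complex IV, 8 of 9 lay below their own mean on replicate 4 by their brightest probe, as did 56.6% of all detected named genes. The second detected probes of Cox5a and Cox5b lay above their means on that array, by 0.55 and 0.47. Relative to all detected genes the complex IV median there was -0.10, and 0.10 after quantile normalization. Cox5a, which is nuclear-encoded and binds the catalytic part, had 0.91, 0.70, 1.05 and 0.22 (SD 0.36, n = 4), with replicate 4 lowest. Cox7b and Cox7a2l had the same lowest array, with -0.92, -0.99, -0.66 and -1.22 (SD 0.23) and 0.64, 0.40, 0.64 and 0.22 (SD 0.20). Cox4i1, the subunit at which ATP is known to slow the enzyme, stood apart on replicate 2, with 2.57, 3.25, 2.65 and 2.61 (SD 0.32, and 0.03 without that replicate). Without replicate 4 the SD of Cox5a was 0.17. The smallest SDs were those of Cox6a1 with 3.22, 3.24, 3.11 and 3.08 (SD 0.08, and 0.19 after quantile normalization) and Cox5b with 2.22, 2.30, 2.37 and 2.19 (SD 0.08). The other Cox5b probe had an SD of 0.33. By the brightest probes, Cox7a2 was the member above its mean on replicate 4, with 1.72, 1.92, 1.72 and 1.86 (SD 0.10). Cox8a had 1.76, 2.05, 2.05 and 1.74 (SD 0.18), with replicates 1 and 4 below the other arrays. Cox6c had an SD of 0.20.

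The ATP synthase has a catalytic head in the matrix, a ring in the membrane that turns with the protons, and a stalk that holds the head still. Of the head, Atp5f1a had levels of 2.70, 2.42, 2.46 and 2.16 (SD 0.22, n = 4), with replicate 4 lowest. Atp5f1b, which carries the catalytic sites, had -1.95, -2.72, -1.59 and -2.74 (SD 0.57), where replicates 2 and 4 were low and replicates 1 and 3 high. Its SD was the largest of the detected members here, but Ndufab1 and Uqcrc2 had a larger SD after quantile normalization (0.92, against 0.87) and Ndufs8 with normexp (0.40, against 0.32). The signals behind Atp5f1b were 99.5, 42.8, 78.1 and 33.4. With normexp its deviations relative to all detected genes were -0.05, -0.31, 0.39 and -0.02. Replicate 4 was then not low and replicate 1 not high. Atp5pb, part of the stalk, also had replicates 2 and 4 low and replicates 1 and 3 high, with levels of -1.26, -1.85, -0.99 and -2.18 (SD 0.54). Atp5f1c, the central shaft, was highest on replicate 4, with -2.60, -2.88, -2.37 and -2.20 (SD 0.29). Atp5f1d and Atp5f1e, at the foot of the shaft, had 0.70, 1.13, 0.70 and 1.04 (SD 0.23) and 1.25, 1.45, 1.41 and 1.39 (SD 0.09). The other detected probe of Atp5f1e spread more, with -1.74, -1.23, -1.38 and -0.86 (SD 0.36).

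Atp5mc1 and Atp5mc2 encode the same ring protein with different targeting sequences. Atp5mc1 had 3.07, 3.22, 3.35 and 3.27 (SD 0.12, n = 4) and the brightest Atp5mc2 probe had 2.60, 2.83, 3.17 and 2.84 (SD 0.24). In both, replicate 1 was lowest and replicate 3 highest. Atp5if1, the inhibitor that stops the enzyme from splitting ATP, had 0.94, 0.72, 0.88 and 0.57 (SD 0.17), with replicate 4 lowest. The remaining 7 subunits, Atp5pd, Atp5me, Atp5mk, Atp5mg, Atp5po, Atp5mf and Atp5pf, had SDs from 0.09 to 0.28.

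**Figure D3:**
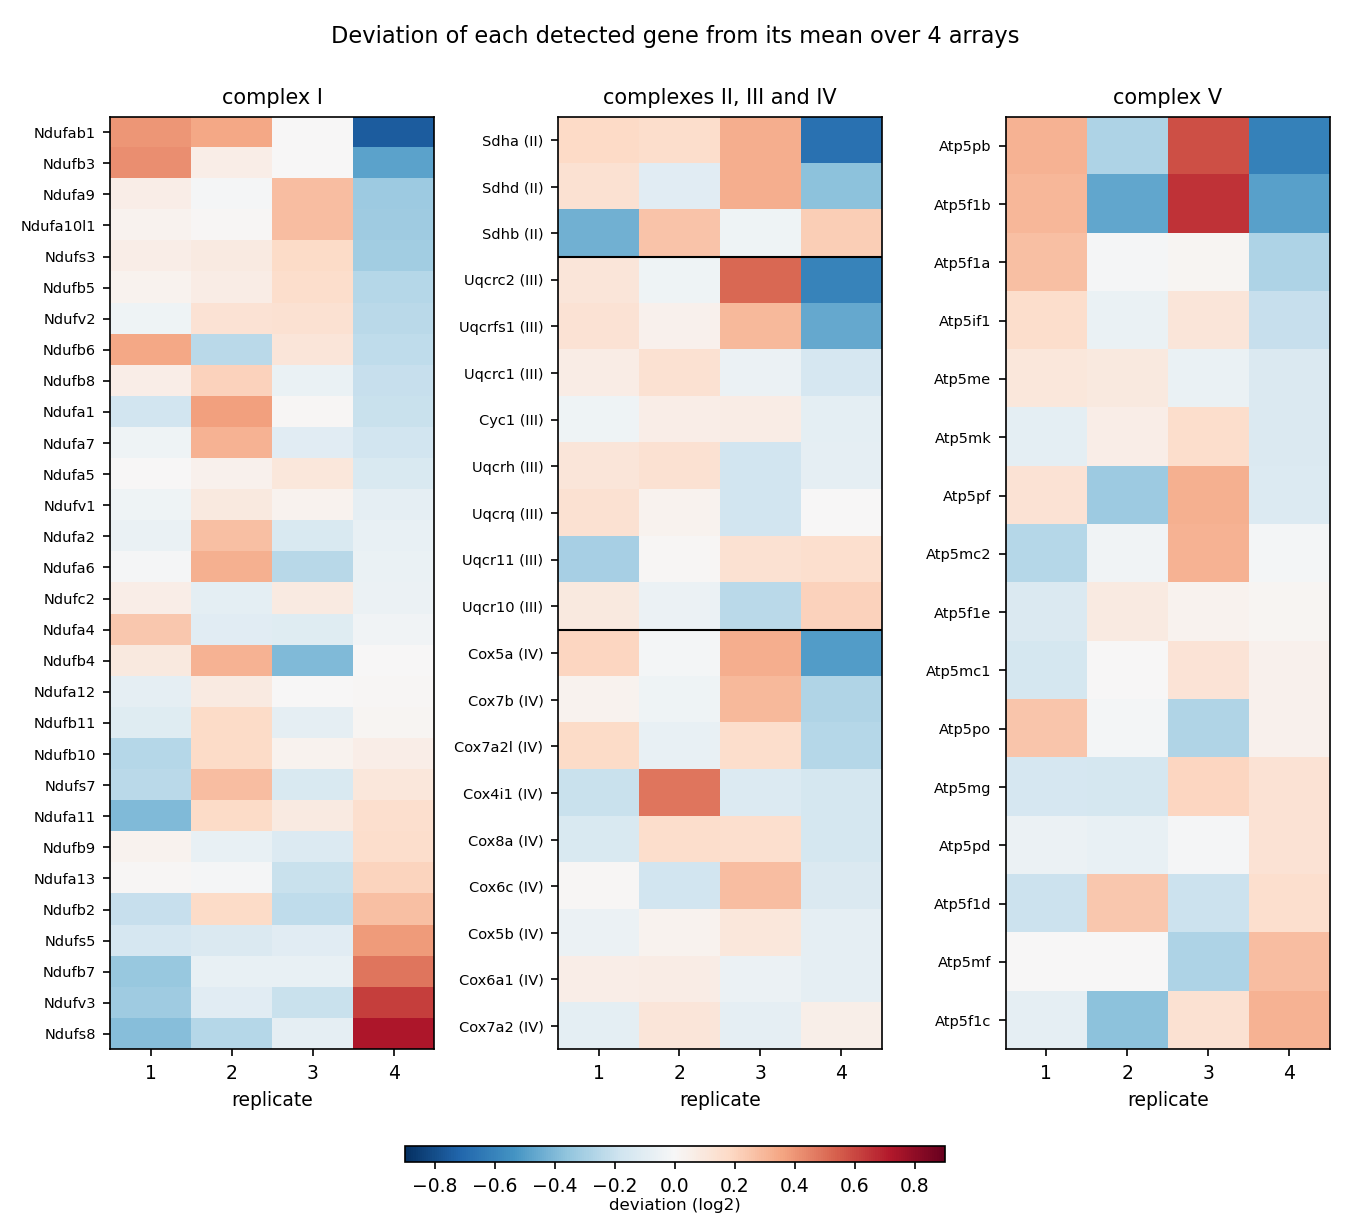
Deviation of each detected gene from its own mean over 4 arrays (colour, log2), for each replicate (columns), with genes of a complex sorted by their value on replicate 4. Complex I runs from Ndufab1 (-0.75) to Ndufs8 (0.73) on replicate 4, and complex V from Atp5pb (-0.61) to Atp5f1c (0.31).

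In median deviation, with the scaling used here, the members sat close to all detected named genes on every array. Their median deviation from the 4-array mean was 0.01, 0.03, 0.03 and -0.08 on replicates 1 to 4, against 0.04, 0.00, 0.00 and -0.05 over all detected named genes. Replicate 4 was the lowest array for 30 of 66 members and the highest for 12, where 39.6% and 30.1% of all detected named genes had it lowest and highest. Replicate 1 was the lowest for 17 members and the highest for 10, against 19.9% and 27.8% of all detected genes. Replicate 2 was the lowest for 7 and the highest for 21 (18.3% and 19.0% of all detected genes), and replicate 3 the lowest for 12 and the highest for 23 (22.2% and 23.2%). Replicate 3 highest with replicate 4 lowest was the order of 17 members, among them Sdha, Sdhd, Uqcrc2, Uqcrfs1, Cyc1, Cox5a, Cox7b, Atp5f1b and Atp5pb, and of 13.8% of all detected genes. Members thus had replicate 2 highest more often than all detected genes, and replicates 1 and 4 highest less often. Replicate 3 highest with replicate 4 lowest was also more frequent in members. These counts describe the arrays and have no test, since each culture was measured on 1 array.

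**Figure D4:**
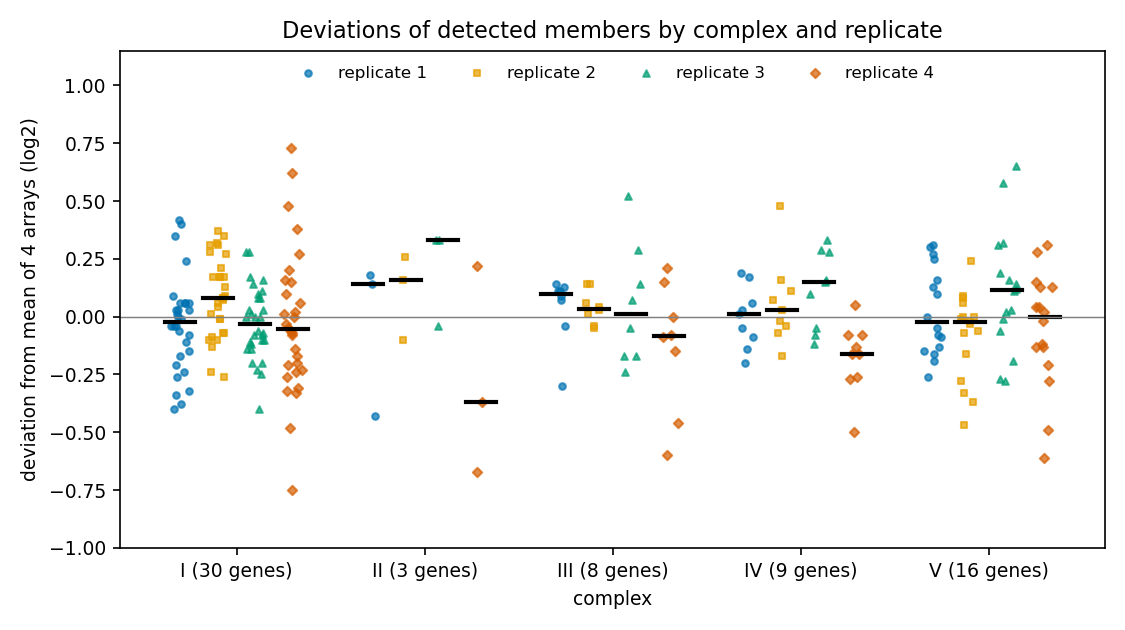
Deviation from the mean of 4 arrays (vertical axis, log2) of each detected member, by complex (horizontal axis) and replicate (colour and symbol), with black bars at the medians. The medians on replicate 4 are -0.06 in complex I, -0.37 in II, -0.08 in III, -0.16 in IV and 0.00 in V.

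By complex, the median on replicate 4 relative to all detected genes was 0.00 in I, -0.32 in II, -0.03 in III, -0.10 in IV and 0.05 in V. The value of complex II rests on 3 genes. After quantile normalization, which puts the median of all detected genes at -0.30 on replicate 4, the relative values were 0.23, -0.34, 0.14, 0.10 and 0.18. The sign thus turned in complexes III and IV, and complex I moved from 0.00 to 0.23. With the normexp background correction the relative values were -0.09, -0.12, -0.09, -0.19 and -0.05. The complex II median was below 0 in all 3 settings, but Sdhb, 1 of its 3 genes, lay above 0 in each, at 0.27, 0.29 and 0.32.

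For 16 detected members a second probe was detected, which shows how far a value depends on the probe. In 8 of these 16 genes all detected probes had their lowest value on the same array, and in 10 they lay on the same side of their mean on replicate 4. Ndufa13 was among those whose probes moved alike. The probes of Atp5f1a shared replicate 4 as the lowest array, but the brighter was highest on replicate 1 and the other on replicate 3. The second probe of Cox5a went the other way on replicate 4. It had -1.40, -1.82, -1.36 and -0.80, so replicate 4 was its highest array, where the brighter probe had it lowest. The second probe of Cox5b, with -1.48, -1.37, -1.26 and -0.74, and the dimmest of Ndufb4, with -2.36, -2.82, -2.60 and -1.67, were also highest on replicate 4, unlike the brightest probe of each gene. Their signals there were 128, 134 and 70.0. The levels of probes of the same gene differed by a median of 4.08-fold and by up to 20.4-fold, in Cox6c. Uqcrq and Ndufab1 each had a probe called on no array beside a detected one, with signals of 2.7 to 4.1 and 3.5 to 5.1.

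**Figure D5:**
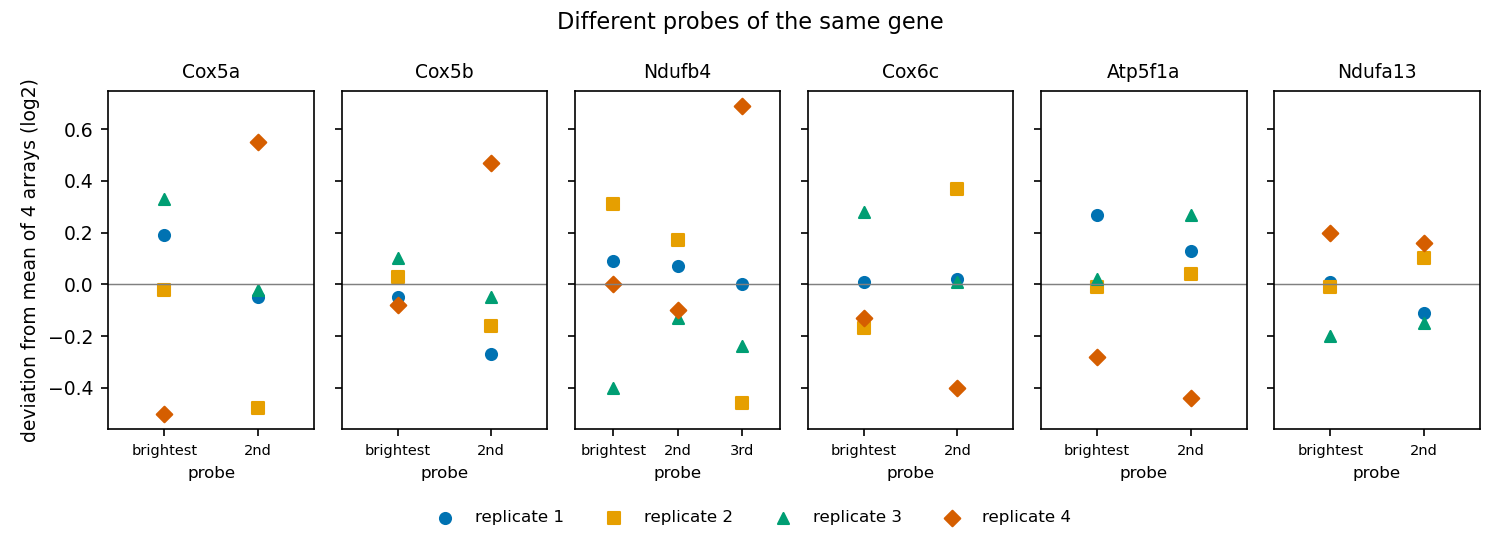
Deviation from the mean of 4 arrays (vertical axis, log2) for the detected probes of 6 genes, sorted by brightness (horizontal axis), with replicates as colours and symbols. On replicate 4 the Cox5a probes read -0.50 and 0.55, and the 2 probes of Ndufa13 read 0.20 and 0.16.

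A test between arrays was possible for 1 member probe. Of the 111 member probes, 109 were printed once and 1 was printed 10 times per array, a probe of Atp5mc2. Its means over 10 spots were 0.35, 0.55, 0.45 and 0.37 on replicates 1 to 4, with SDs between spots of 0.07, 0.15, 0.13 and 0.14. Limma's moderated F test over the arrays, with spots as repeats, gave adjusted p = 0.0117 over the 1350 probes tested, of which 81.0% passed. Replicate 2 was the highest, and the SD between arrays was 0.09 on the log2 scale. Without replicate 2 the adjusted p was 0.29 in limma. The test compares arrays and says nothing of the exposure. The brightest Atp5mc2 probe, printed once, had its highest value on replicate 3 instead.

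Genes that build and feed the chain were detected less fully than its subunits. Of 38 assembly factors on the array, 10 were detected (26.3%), 9 were called on some arrays and 19 on none. The detected ones were Ndufaf5, Ndufaf8, Ecsit and Tmem126b of complex I, Uqcc2 and Uqcc3 of complex III, and Surf1, Cox17, Coa4 and Pet100 of complex IV. Ndufaf5, an assembly enzyme of complex I, had -3.27, -3.44, -3.42 and -1.61 (SD 0.88, n = 4), and Coa4 had -3.90, -3.44, -3.53 and -2.33 (SD 0.68). Replicate 4 was highest in both. Of 15 carriers, pores and other electron donors, 7 were detected, Slc25a5, Ucp2, Vdac1, Vdac2, Vdac3, Etfb and Aifm1. Aifm1, a flavoprotein of the intermembrane space, had -2.89, -3.47, -2.64 and -1.84 (SD 0.67), and Vdac3, a pore of the outer membrane, had -1.64, -2.49, -1.51 and -2.46 (SD 0.52). In Vdac3, replicates 2 and 4 were low by the processed signal, as in Atp5f1b.

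Of 19 regulators of mitochondrial genes and of mitochondrial DNA, 1 was detected (5.26%), the nuclear receptor gene Esrra, with -2.39, -2.60, -2.65 and -3.04 (SD 0.27, n = 4). Tfam, Polrmt, Polg, Twnk, Ssbp1, Lrpprc and Hif1a were called on some arrays. The coactivator genes Ppargc1a and Ppargc1b, and Nrf1, Gabpa and Gabpb1, which encode NRF1 and GABP, were called on no array. The same held for Pprc1, Yy1, Tfb1m, Tfb2m, Polg2 and Slirp. Other factors of the ETS family, whose motif was searched, were not among the 19 genes. These shares stand beside the 11.9% over all named genes and were not tested.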

How the data were processed

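Each of 4 cultures was measured on 1 Agilent array. The deposited values are intensity, linear and in 1 colour. Per the file headers, the processed signal had its background subtracted and was not scaled to other arrays. The submitters' processing notes name Agilent Feature Extraction version 11.0.1.1. Median spot and background intensities, deposited without that subtraction, served for normexp (offset 50).

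The 4259 control spots and spots called non-uniform or population outliers (546 to 1296 gene spots per array) were left out. Spots of a probe were averaged on the log2 scale. A probe was called when over 50% of its spots were well above background. Levels are relative to the array's 75th percentile, taken from the 3208 probes detected on all arrays, signals of 384, 280.8, 235.8 and 223. The brightest detected probe gave a gene's value. Accessions without versions were named through RefSeq's table of GRCr8 (21109 of 45598 probes); 45 members have like-named copies or pseudogenes there, whose transcripts a probe may not tell apart. The files' header names an older build, so only promoters, from RefSeq, carry coordinates.

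Members and lists were chosen with earlier results of these data known. The values of 1 member are not reported here. Values in each replicate are given for 33 members: function-bearing subunits, isoforms, the repeatedly printed probe and the 3 largest SDs of each complex. Genes of other lists were named when detected, with values for the 2 of largest SD. Limma version 3.58.1 in R version 4.3.3 tested probes that kept 3 or more spots per array; Python version 3.11.15, numpy version 2.4.6 and pandas version 2.3.3 did the rest. Tested on simulated data of 1350 probes for the comparison of the 4 arrays, limma called 50.0% of 50 probes changed by 0.25 on the log2 scale, 84.0% at 0.5 and 98.0% at 1, and 13 of 1150 unchanged ones. The number of arrays limits the precision. The alternatives were other detection, scaling, background, flag, filter and probe rules and leaving out each replicate.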

Additional observations from a re-analysis of the deposited data

Results flagged for a closer look

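On the log2 scale, 4 detected members had 1 array far from the other 3, by the gap of the extreme array over the whole range (above Dixon's 95% critical value for 4 samples). Chance flags about 1 in 20 groups, and these 4 were 6.06% of the 66 detected members, against 7.66% of all detected named genes. Cox4i1 was high on replicate 2, at 3.25. Ndufa11, an accessory subunit of complex I, was low on replicate 1, at -0.97, with -0.40, -0.48 and -0.42 on the other arrays. Ndufs5, another accessory subunit, was high on replicate 4, at -0.27, with -0.80, -0.78 and -0.75 on the others. Sdha was low on replicate 4, at -2.53, with a ratio of 0.83, just above that critical value. Of the member probes of undetected genes that were called on 1 to 3 arrays, a Cox6a2 probe was set apart too, with a signal of 38.5 on replicate 4. It was examined only because it was called on that array, so this mark carries no weight. The other Cox6a2 probe had 4.8 there. Probes called on no array were not examined in this way. Of the 149 detected named genes set apart in this way, 103 were so on replicate 4.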

How the results depend on the processing

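The count of detected members stayed between 66 and 69 under the alternatives run for it, and each complex stayed within 2 genes. The median SD of members was 0.42 unscaled, against 0.456 over all detected named genes. It was 0.873, against 0.851, with the percentile taken over all gene probes, and 0.198, against 0.167, with normexp. In the other alternatives it lay between 0.176 and 0.235 and was below that of all genes in each. Of the SDs of 33 named members, 12 moved by over 1.5 times without replicate 4, 13 with normexp and 9 after quantile normalization. The median of all detected genes on replicate 4 moved from -0.05 to -0.35 unscaled, -1.23 with the percentile over all gene probes and -0.30 after quantile normalization. Members ranging over 2-fold numbered 9 with detection by negative control spots, 18 with no filter on dim probes, 27 unscaled, 65 with the percentile over all gene probes, 8 after quantile normalization and 0 with normexp, where 39 of 1946 detected genes did; the count was 2 to 5 with each replicate left out. Of the 5 named genes, 4 remained after quantile normalization and 5 when probes of a gene were averaged. The members' median deviation relative to all detected genes, -0.027, 0.031, 0.022 and -0.025 on replicates 1 to 4, moved with several settings. It was 0.429, 0.281, -0.019 and -0.638 with no filter on dim probes, -0.09, -0.041, -0.029 and 0.153 after quantile normalization, 0.07 on replicate 1, -0.017 on replicate 3 and -0.095 on replicate 4 with normexp, and 0.026 on replicate 4 with detection on 3 of 4 arrays. With each replicate left out it ranged from -0.079 to -0.014 on replicate 1 and from 0.029 to 0.076 on replicate 2. The adjusted p of the Atp5mc2 probe in limma was 0.105 with normexp, and from 0.0104 to 0.29 with each replicate left out. The cause of these changes was not tested, except that no filter on dim probes adds genes at background. No paired analysis was possible because there is 1 group. Signal limits the rest: 109 of 111 member probes rest on 1 spot, and members under a mean signal of about 303 spread more.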
